A study of Arabidopsis thaliana with 12 samples.

Results

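The loci encoded in the chloroplast and in the mitochondria of Arabidopsis thaliana were taken from a table of leaf transcript levels by the prefix of their locus ID, ATCG for the chloroplast and ATMG for mitochondria. The rule found 133 chloroplast loci and 146 mitochondrial loci, together 279 of the 33557 loci in the table. Levels are FPKM, fragment numbers scaled by transcript length and by a scaling factor for each library. The 12 columns of the table held 3 replicates each of 4 groups of 5-week-old plants of the Col-0 ecotype. The 35S:HSFA1b HS group carried a transgene for a fusion of HSFA1b, a heat shock transcription factor, to red fluorescent protein under the constitutive 35S promoter, and was exposed to 37 °C for 30 min (heat stress, HS). The 35S:HSFA1b NS group carried the same transgene and stayed at 23 °C (non-stress, NS). WT HS plants had no transgene and received the same heat, and WT NS plants had no transgene and stayed at 23 °C. The columns of each group carry a digit from 0 to 2, which nothing ties to the replicate numbers of the libraries, so a column is named here by its group and digit.

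Chloroplasts and mitochondria keep small genomes that encode subunits of their photosynthetic or respiratory complexes, parts of their ribosomes, and rRNA and tRNA. The other proteins of both organelles, including the phage-type RNA polymerases, the sigma factors of the plastid polymerase and most nucleases, are encoded in the nucleus and imported. Plant organelle transcripts are often processed from long precursors, and a poly(A) tail marks them for decay rather than for stability. The labels name a TruSeq RNA kit, and whether it selected RNA by poly(A) tail is not given in the sources used here.

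A locus is named here only where the RefSeq annotation of the nuclear genome ties its ID to a function. Such notes gave a function for 6 chloroplast loci and for 24 mitochondrial loci. ATCG00670 is given as the plastid-encoded CLP P, a subunit of the proteolytic core of the chloroplast Clp protease. RefSeq (TAIR10.1) places clpP on the minus strand of the chloroplast genome, from base 69910 to base 71882, with 3 exons and a coding length of 591 bases. The coding sequence of exon 1 is shown because this locus carries the only chloroplast calls described here, apart from those of alternative fits. It spans bases 71812 to 71882, and the capitals mark the start codon.
clpP exon 1: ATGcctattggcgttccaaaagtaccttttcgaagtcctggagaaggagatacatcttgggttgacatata
The gene matched the nuclear genome in 1 alignment, of 376 bases at 91.49% identity on chromosome 2, and the mitochondrial genome in none.

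The mitochondrial genome differs from this, since much of it has a near-identical copy in the nucleus. Alignments of at least 1000 bases at 99% identity or more covered 72.2% of its 367808 bases, and 17 of the 18 lay on chromosome 2, between bases 3239038 and 3509765. The longest was 50638 bases at 99.9% identity. Of the 38 coding genes that RefSeq gives for the mitochondrial genome, 25 lay wholly inside such an alignment. No stretch of the chloroplast genome matched the nucleus at that length and identity. The start of cob, which encodes apocytochrome b of the respiratory chain (ATMG00220), and that of atp9, which encodes a subunit of the membrane part of ATP synthase (ATMG01080), are shown beside their nuclear copies, because both loci were listed at 0 in every column. The capitals mark the start codon.
cob, mitochondrial genome, bases 182799 to 182858, minus strand: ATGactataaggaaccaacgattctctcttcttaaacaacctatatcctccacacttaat
AT2G07727, chromosome 2, bases 3450863 to 3450922, plus strand: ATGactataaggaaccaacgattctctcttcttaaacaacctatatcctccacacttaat
atp9, mitochondrial genome, bases 271126 to 271185, minus strand: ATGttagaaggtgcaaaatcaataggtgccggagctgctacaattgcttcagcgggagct
AT2G07671, chromosome 2, bases 3252021 to 3252080, minus strand: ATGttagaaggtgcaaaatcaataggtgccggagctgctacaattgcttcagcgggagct
Both pairs were identical over these 60 bases and over the whole coding sequence, of 1182 bases for cob and 225 bases for atp9. The coding sequences of rps4, cox3 and atp1 were likewise identical to a stretch of chromosome 2 over 1089, 798 and 1524 bases.

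Many organelle loci were listed at 0 in every column. This held for 64 chloroplast loci (48.1%) and 95 mitochondrial loci (65.1%), against 25.9% of the nuclear loci. Among the 52 mitochondrial loci whose nuclear copy RefSeq names, with 99.03 to 100% identity, 41 (78.8%) were at 0 in all 12 columns, and 54 of the other 94 (57.4%) were. The other 94 were not checked for nuclear copies locus by locus, so they are not a set without copies. The 52 loci included none with a mean of at least 1 FPKM, and the highest mean among them was 0.576 FPKM. Of the 24 mitochondrial loci with a named function, 20 were at 0 throughout. They include the loci of apocytochrome b, cytochrome c oxidase subunit 3 (ATMG00730), ATP synthase subunit 1 (ATMG01190), ATPase subunit 6-1 (ATMG00410), the F0-ATPase subunit 9, NADH dehydrogenase 3 (ATMG00990) and the ribosomal proteins S4, S7, S12 and L5 (ATMG00290, ATMG01270, ATMG00980 and ATMG00210). Of the 54 nuclear copies, 34 (63%) were listed at 0 in all columns and 1 had a mean of at least 1 FPKM. The chloroplast genome carries a repeat of 26264 bases in 2 identical copies, and ATCG01310, given as ribosomal protein L2, whose gene rpl2 lies in both, was at 0 in every column. Since genes that every cell uses are among these loci, a value of 0 is read here only as listed at 0, and how reads with several matches were assigned is not given in the sources used here.

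**Figure D1:**
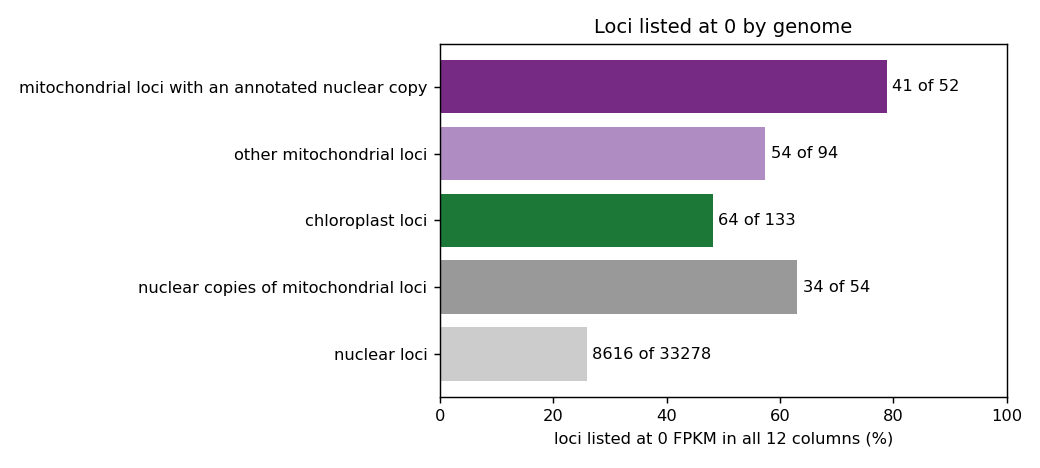
Percentage of loci listed at 0 FPKM in all 12 columns, for mitochondrial loci with and without a nuclear copy named by RefSeq, chloroplast loci, the nuclear copies and nuclear loci, with the counts beside each bar. The bar is longest for mitochondrial loci with a named copy, at 78.8%, and shortest for nuclear loci, at 25.9%.

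The table holds no counts. The spacing of low values of long single-exon nuclear loci put the worth of 1 fragment on a transcript of 1 kb at 0.0365 to 0.088 FPKM, depending on the column. Between 52.2% and 69.3% of values up to a few fragments lay within 0.1 of a whole multiple of it, so this is a rough guide to depth only. The level of HSFA1b follows the labels, at 348 ± 17 FPKM in 35S:HSFA1b HS and 505 ± 104 FPKM in 35S:HSFA1b NS plants, against 6.68 ± 0.578 FPKM in WT HS and 3.81 ± 0.878 FPKM in WT NS plants (SD, n = 3 each). The leaf markers RBCS1A, RCA, LHCB1.3, CA1 and GAPA had group means between 1132 and 27780 FPKM, and the flower markers AG, AP3, PI and SEP3 stayed below 0.4 FPKM. Of the root markers, NRT2.1, CASP1 and CASP2 stayed below 0.3 FPKM, while PYK10 had group means between 13.4 and 40.5 FPKM. The library names fall into 2 numbered series, which hold all 6 WT libraries with 1 of 35S:HSFA1b NS, and the other 2 of 35S:HSFA1b NS with all 3 of 35S:HSFA1b HS. Columns are not tied to libraries, so genotype and this series cannot be told apart. Heat in 35S:HSFA1b plants and the difference of the heat response are partly mixed with the series as well.

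In the chloroplast, 41 loci had a mean of at least 1 FPKM over the 12 columns and were used for changes. Their means lay between 1.44 and 44.7 FPKM with a median of 3.39 FPKM, and 28 of them were below 5 FPKM. Another 28 loci were above 0 in some column with a mean below 1 FPKM. The 5 tested loci with the highest mean in WT NS plants were ATCG00020, ATCG01020, ATCG00490, ATCG00470 and ATCG00480. ATCG00470 had 17.8, 20.0 and 21.5 FPKM in 35S:HSFA1b HS, 13.7, 9.55 and 21.0 FPKM in 35S:HSFA1b NS, 21.2, 18.3 and 15.5 FPKM in WT HS, and 15.6, 20.0 and 26.9 FPKM in WT NS plants. ATCG00480 had 13.6, 21.0 and 16.5 FPKM in 35S:HSFA1b HS, 14.1, 13.0 and 16.8 FPKM in 35S:HSFA1b NS, 20.2, 19.9 and 18.0 FPKM in WT HS, and 15.7, 18.2 and 25.6 FPKM in WT NS plants. For ATCG00470 the columns of all groups overlapped, and for ATCG00480 those of 35S:HSFA1b NS lay below those of WT HS while the groups of each comparison overlapped. ATCG01020 averaged 43.9 ± 19.8 FPKM in 35S:HSFA1b HS, 43.2 ± 14.7 FPKM in 35S:HSFA1b NS and 42.8 ± 16.4 FPKM in WT NS plants (SD, n = 3 each), and in WT HS plants it was listed at 0, 30.5 and 20.9 FPKM.

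The other 2 of these loci owed their place to a single column. ATCG00020 had 170 FPKM in WT NS column 2, against 8.42 and 9.41 FPKM in the other WT NS columns and 8.13 to 22 FPKM in the 9 columns of the other groups. ATCG00490 had 75 FPKM in WT NS column 2, and 2.47 to 8.83 FPKM in all other columns. WT HS column 0 stood apart as well. Among the 41 tested loci, the highest value lay in this column for 18 and in WT NS column 2 for 14. The median deviation of the 41 loci from the 12-column median was 1.12 on the log2 scale in WT HS column 0 and 0.65 in WT NS column 2, and between -0.31 and 0.47 in the other 10 columns. The nuclear loci did not shift with them, with a median deviation between -0.02 and 0.02 in every column. Results are therefore also given without these 2 columns, an alternative chosen after seeing the data.

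**Figure D2:**
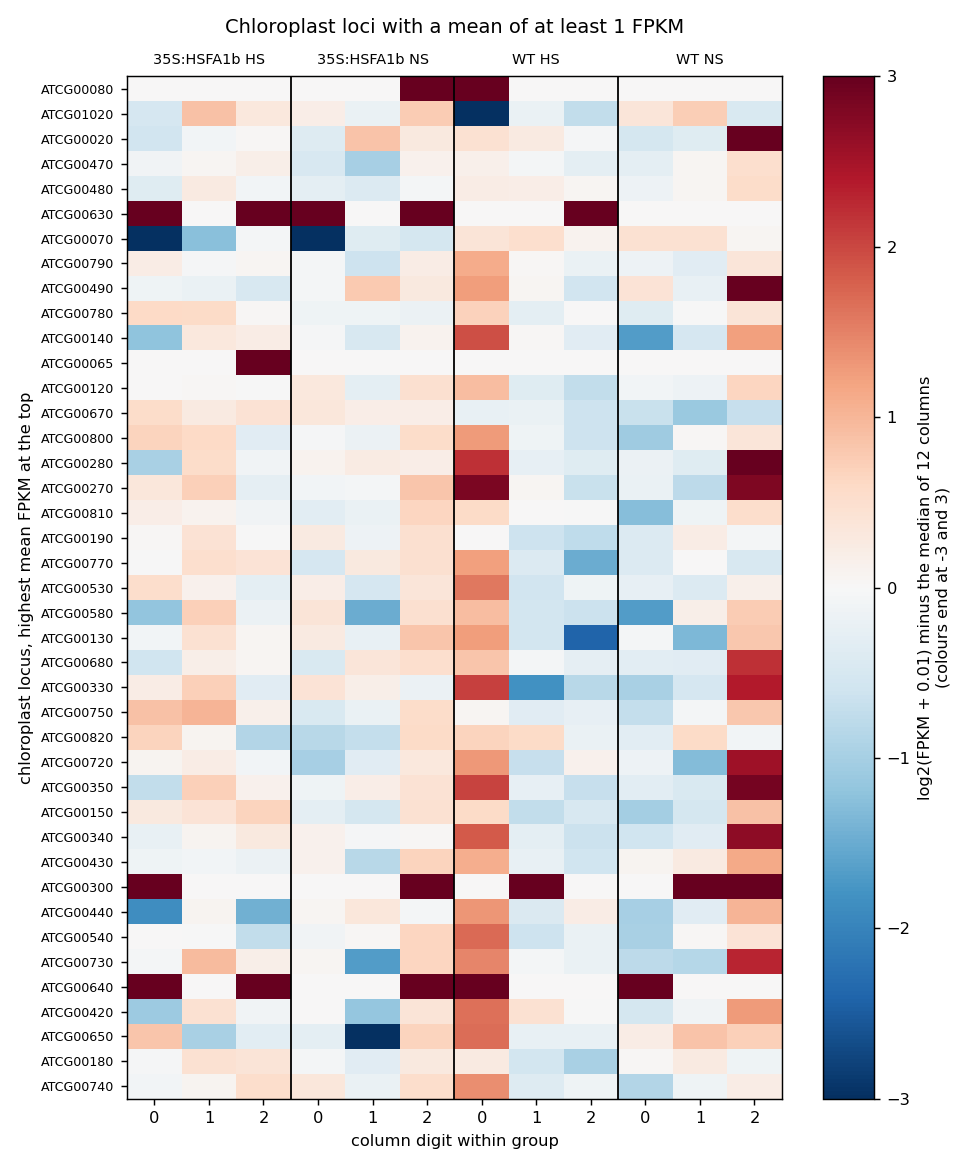
Heat map of the 41 chloroplast loci with a mean of at least 1 FPKM, with 1 row a locus and 1 column a replicate, by group. Colour gives log2(FPKM + 0.01) minus the median of the 12 columns, and WT HS column 0 and WT NS column 2 are red for most loci, with the highest value for 18 and 14 of them.

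The spread within groups was wide for organelle loci. The median within-group SD on the log2 scale was 0.86 for the tested chloroplast loci and 0.85 for the tested mitochondrial loci, against 0.18 for tested nuclear loci. At means from 1 to 5 FPKM and with no column at 0, it was 0.77 over 25 chloroplast loci and 0.83 over 5 mitochondrial loci, against 0.28 over 4432 nuclear loci. A further 8 tested chloroplast loci were at 0 in at least 1 column. ATCG00065 was above 0 in 1 column, at 90.3 FPKM in 35S:HSFA1b HS column 2, and ATCG00080 in 2 columns, at 149 FPKM in 35S:HSFA1b NS column 2 and 388 FPKM in WT HS column 0. In these bulk leaf samples, fewer cells of a type and less RNA per cell cannot be told apart.

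Heat in WT plants left 1 chloroplast locus past the test. With limma, fitted to all 12 columns on log2(FPKM + 0.01) and adjusted over 17720 loci, 8647 loci (48.8%) were called at an adjusted p of at most 0.05 between WT HS and WT NS plants, and 1 of the 41 chloroplast loci was. At an unadjusted p below 0.05 the count was also 1. The median log2 fold change of the 41 loci was 0.01, against 0.03 for nuclear loci, and 22 of the 41 were positive. The median half-width of their 95% interval was 1.36, against 0.32 for nuclear loci, and the interval lay inside a 2-fold change either way for 5 chloroplast loci. The columns of WT HS and WT NS plants did not overlap for 1 chloroplast locus, against 54.3% of all tested loci.

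The locus called was ATCG00670, the plastid-encoded CLP P. It had 4.24, 4.32 and 3.21 FPKM in WT HS plants, against 3.12, 2.3 and 3.04 FPKM in WT NS plants. All 3 heated columns were above the 3 unheated ones, the nearest by less than 0.1 FPKM. The log2 fold change was 0.47 ± 0.16 (SE), with an adjusted p of 0.0278 in limma. Leaving out WT NS column 1, WT HS column 0 or WT HS column 1 ended this call, with adjusted p values of 0.11, 0.0768 and 0.0949, and without both columns that stand apart it was 0.084. The locus called without WT HS column 0, or without both columns that stand apart, was ATCG00180 instead, and without WT HS column 1 it was ATCG01020. Of the 5 leaf markers, GAPA fell by 0.66 on the log2 scale in the same comparison, and RBCS1A, RCA, LHCB1.3 and CA1 did not pass the test, with log2 fold changes of -0.07, 0.20, -0.02 and -0.23. The part of leaf composition in these values was not tested.

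Other chloroplast loci with a named function did not pass the test under heat in WT plants. ATCG00530, given as a CemA-like proton extrusion protein, averaged 4.5 ± 3.76 FPKM in WT HS plants and 2.66 ± 0.566 FPKM in WT NS plants. ATCG00430 averaged 2.09 ± 1.38 FPKM in WT HS plants and 2.55 ± 1.05 FPKM in WT NS plants. The note of a nuclear gene, AT5G11770, calls it a photosystem II reaction center protein G. That name was not checked against the chloroplast annotation, so the function of this locus is left open. ATCG00750, for ribosomal protein S11, averaged 2.03 ± 0.308 FPKM in WT HS plants and 2.54 ± 1.35 FPKM in WT NS plants (SD, n = 3 for each group). Each of these differences was smaller than the larger SD of its groups. ATCG00660, for ribosomal protein L20, had a mean of 0.808 FPKM over all columns and was not tested.

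The transgene without heat also left 1 chloroplast locus past the test. Between 35S:HSFA1b NS and WT NS plants, 2624 of 17720 loci (14.8%) were called, and 1 of the 41 chloroplast loci, with 1 at an unadjusted p below 0.05. The median log2 fold change was -0.10 over the chloroplast loci and -0.01 over nuclear loci, and the interval lay inside a 2-fold change for 7 of the 41. ATCG00670 had 6.32, 5.68 and 5.73 FPKM in 35S:HSFA1b NS plants, against 3.12, 2.3 and 3.04 FPKM in WT NS plants. Its log2 fold change was 1.08 ± 0.16 (SE), with an adjusted p of 0.0012 in limma. The groups stood apart by more than their spread, and the call held with any column left out, with a log2 fold change between 0.93 and 1.16. Leaving out columns cannot separate genotype from the series of the library names, so for this locus too the 2 cannot be told apart. The columns did not overlap for 2 chloroplast loci, against 36.8% of all tested loci. Beside ATCG00670 this was ATCG00070, named after its values were seen, which was listed at 0, 10.6 and 9.51 FPKM in 35S:HSFA1b NS plants, against 18.7, 18.9 and 14.1 FPKM in WT NS plants and did not pass the test (adjusted p = 0.361 in limma). In the same comparison 3 of the 5 leaf markers, RBCS1A, LHCB1.3 and GAPA, fell by 1.87, 1.94 and 1.09 on the log2 scale. RBCS1A was at 3057, 3138 and 15510 FPKM in 35S:HSFA1b NS plants, against 17140 to 21750 FPKM in WT NS plants, so the fall was large in 2 of the 3 columns. LHCB1.3 was likewise at 4095, 4324 and 21190 FPKM in 35S:HSFA1b NS plants, against 24700 to 30640 FPKM in WT NS plants. The root marker PYK10 rose by 1.44 on the log2 scale (adjusted p = 0.00193 in limma), and the part of tissue composition in the value of ATCG00670 was not tested.

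**Figure D3:**
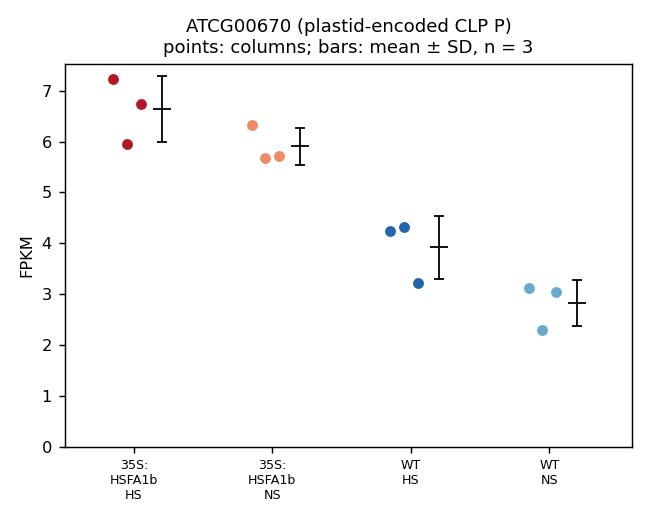
FPKM of ATCG00670, the plastid-encoded CLP P, in each column of the 4 groups, with mean and SD beside the points. The 6 columns of 35S:HSFA1b plants lie between 5.68 and 7.23 FPKM, above the 6 columns of WT plants at 2.3 to 4.32 FPKM.

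Heat in 35S:HSFA1b plants called 0 of the 41 chloroplast loci in limma, also 0 at an unadjusted p below 0.05, while 7500 of 17720 loci (42.3%) were called. ATCG00670 had 7.23, 5.96 and 6.73 FPKM in 35S:HSFA1b HS plants, against 6.32, 5.68 and 5.73 FPKM in 35S:HSFA1b NS plants. These columns overlapped, and the log2 fold change was 0.17 with a 95% interval from -0.18 to 0.51. The columns did not overlap for 2 chloroplast loci, against 58.9% of all tested loci, and neither passed the test. They were ATCG00490, with 3.37, 3.18 and 2.63 FPKM in 35S:HSFA1b HS and 3.52, 6.29 and 4.49 FPKM in 35S:HSFA1b NS plants, and ATCG00780, with 13.6, 13.3 and 9.14 FPKM in 35S:HSFA1b HS and 8.12, 8.16 and 7.86 FPKM in 35S:HSFA1b NS plants, both named after their values were seen. Without both columns that stand apart, 1 chloroplast locus was called, ATCG00780. The difference of the heat response, 35S:HSFA1b minus WT, was called for 0 of the 41 chloroplast loci, again with 0 at an unadjusted p below 0.05, and for 2112 of 17720 loci (11.9%). For ATCG00670 this difference was -0.31 on the log2 scale, with an interval from -0.80 to 0.18.

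In mitochondria, 9 loci had a mean of at least 1 FPKM, from 1.06 to 9.81 FPKM, and 42 more were above 0 with a lower mean. None of the 9 is tied to a function or to a nuclear copy by the notes used here. The 5 with the highest mean in WT NS plants were ATMG01390, ATMG00020, ATMG00030, ATMG01370 and ATMG00660. ATMG01390 had 5.25, 6.95 and 6.17 FPKM in 35S:HSFA1b HS, 5.44, 7.35 and 7.32 FPKM in 35S:HSFA1b NS, 8.95, 8.41 and 17.5 FPKM in WT HS, and 7.49, 3.74 and 33.2 FPKM in WT NS plants. ATMG00020 had 2.12, 3.93 and 3.62 FPKM in 35S:HSFA1b HS, 2.26, 5.76 and 4.06 FPKM in 35S:HSFA1b NS, 9.52, 4.56 and 8.73 FPKM in WT HS, and 3.95, 2.01 and 28.2 FPKM in WT NS plants. Both were highest in WT NS column 2, the column with the high ATCG00020. ATMG01380 was above 0 in 1 column, at 68.5 FPKM in 35S:HSFA1b NS column 2. In WT HS column 2, 5 of the 9 loci had their highest value. The median deviation of the 9 loci from the 12-column median was 1.29 on the log2 scale in this column and -0.99 in WT NS column 1, and between -0.41 and 0.33 in the other 10 columns. Results for mitochondria are therefore also given without these 2 columns, again an alternative chosen after seeing the data.

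Heat in WT plants called ATMG00690, ATMG00640 and ATMG00110 higher, 3 of the 9 mitochondrial loci tested, where 48.8% of all loci were called. ATMG00690 and ATMG00110 reached a mean of 1 FPKM only through their WT HS values, with means of 0.635 and 0.875 FPKM over the other 3 groups. The number of loci called is therefore no result about mitochondria as a whole. Tests of both loci that use WT HS plants are also not independent of the filter. ATMG00690 had 0.939, 2.28 and 4.92 FPKM in WT HS plants, against 0.278, 0.18 and 0.206 FPKM in WT NS plants. Its log2 fold change was 3.27 ± 0.54 (SE), with an adjusted p of 0.000604 in limma, and the columns of the groups did not overlap. The call held under all 24 alternatives that gave this locus a value, with an adjusted p between 0.000104 and 0.0428 and a log2 fold change between 1.46 and 3.88. Apart from the fit with no filter, each of these kept a filter that the locus passed only through its WT HS values. Its WT NS values are low, where 1 fragment on a transcript of 1 kb is worth about 0.0374 to 0.0506 FPKM in those columns.
ATMG00640 had 2.04, 1.58 and 4.73 FPKM in WT HS plants, against 0.516, 0.749 and 1.05 FPKM in WT NS plants, again with no overlap. The log2 fold change was 1.73 ± 0.49 (SE), with an adjusted p of 0.014 in limma. Without WT HS column 2 it was 1.27 with an adjusted p of 0.0526, and without both WT HS column 2 and WT NS column 1 the adjusted p was 0.0954. Rescaling the columns on the mitochondrial loci gave 0.59 with an adjusted p of 0.454.
ATMG00110 had 0.784, 1.55 and 2.56 FPKM in WT HS plants, against 0.927, 0.449 and 0.171 FPKM in WT NS plants, and these columns overlapped. The log2 fold change was 1.78 ± 0.63 (SE), with an adjusted p of 0.0359 in limma. This call was lost without WT NS column 1, WT NS column 2, WT HS column 1 or WT HS column 2, with an adjusted p between 0.0716 and 0.138, and without both WT HS column 2 and WT NS column 1, at 0.176. It was also lost under quantile normalization (0.107), with only the groups compared (0.0936), with a replicate block (0.0636) and on rescaling to the mitochondrial loci (0.472). Without WT HS column 2, or without WT NS column 1 as well, the count of calls was 1 of 9, and without WT HS column 0 it was 5.

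The transgene without heat called 0 of the 9 mitochondrial loci in limma, against 14.8% of all loci, with 1 at an unadjusted p below 0.05, ATMG00110 (adjusted p = 0.122). This locus had 1.43, 1.1 and 1.21 FPKM in 35S:HSFA1b NS plants, against 0.927, 0.449 and 0.171 FPKM in WT NS plants. ATMG00690 had 0.477, 0.292 and 0.457 FPKM in 35S:HSFA1b NS plants, against 0.278, 0.18 and 0.206 FPKM in WT NS plants (adjusted p = 0.314). Columns did not overlap for these 2 loci, against 36.8% of all tested loci.

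Heat in 35S:HSFA1b plants raised 1 of the 9 mitochondrial loci, ATMG00690, against 42.3% called over all loci, and 2 were at an unadjusted p below 0.05. It had 0.956, 1.8 and 1.07 FPKM in 35S:HSFA1b HS plants, against 0.477, 0.292 and 0.457 FPKM in 35S:HSFA1b NS plants. The log2 fold change was 1.59 ± 0.54 (SE), with an adjusted p of 0.0333 in limma. The call was lost without any of the 3 columns of 35S:HSFA1b NS, or without column 1 or 2 of 35S:HSFA1b HS, with an adjusted p between 0.0511 and 0.115. ATMG01370 had 4.16, 3.86 and 4.41 FPKM in 35S:HSFA1b HS plants, against 1.18, 1.24 and 2.79 FPKM in 35S:HSFA1b NS plants, and did not pass the test (adjusted p = 0.091). The columns did not overlap for these 2 loci, against 58.9% of all tested loci. The difference of the heat response, 35S:HSFA1b minus WT, was called for 0 of the 9 loci in limma, against 11.9% of all loci, with 2 at an unadjusted p below 0.05. They were ATMG00110 (log2 difference -2.45 ± 0.89 SE, adjusted p = 0.0975) and ATMG00690 (-1.68 ± 0.76 SE, adjusted p = 0.165). Without WT HS column 0 both were called, still under the filter over all 12 columns. Both loci passed that filter only through their WT HS values, which enter the difference with a minus sign. Neither its sign nor its size is therefore independent of the filter.

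**Figure D4:**
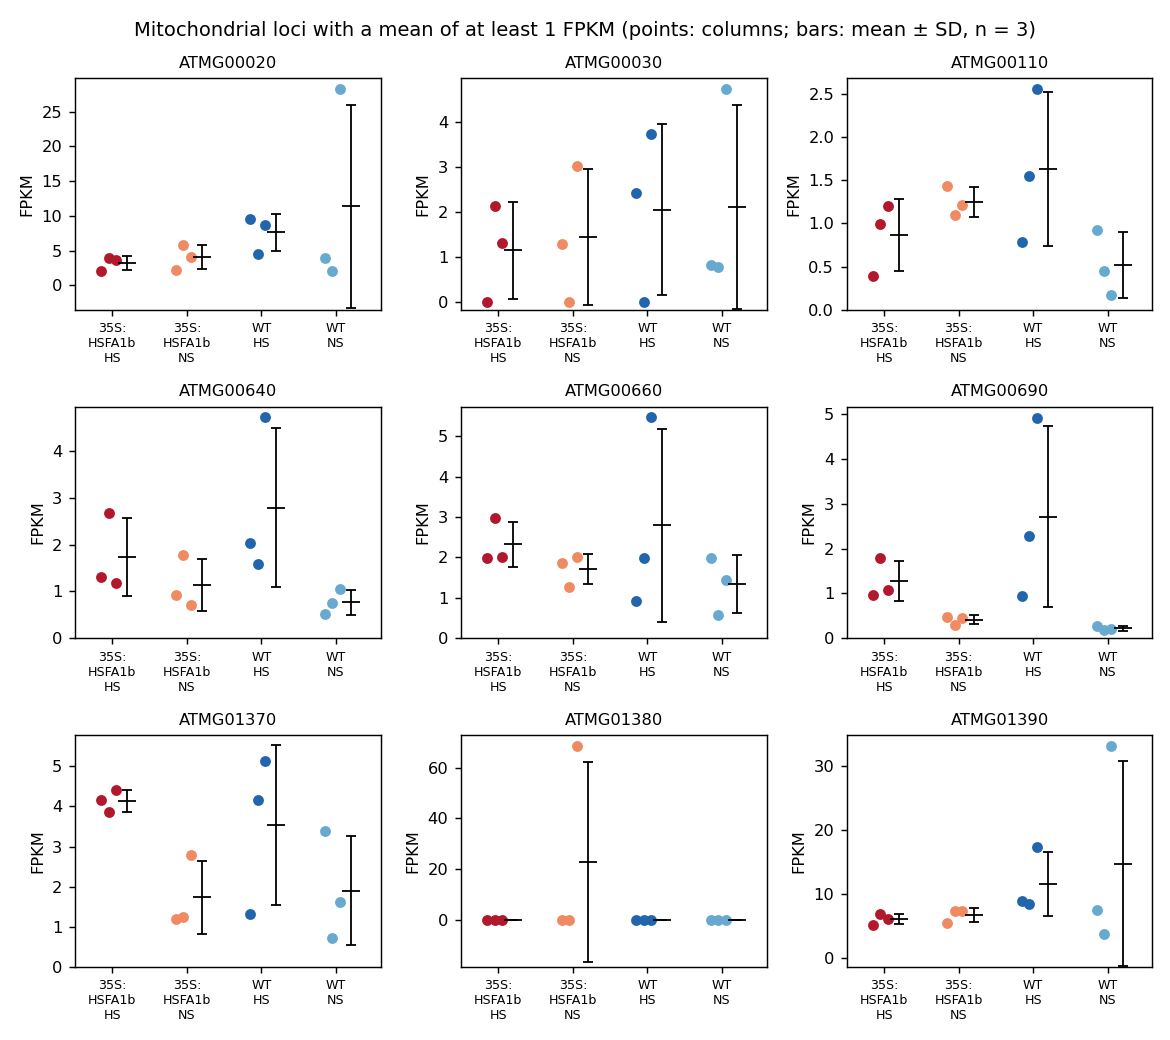
FPKM of the 9 mitochondrial loci with a mean of at least 1 FPKM in each column of the 4 groups, with mean and SD beside the points. For ATMG00690 the WT HS columns lie between 0.939 and 4.92 FPKM, above the WT NS columns at 0.18 to 0.278 FPKM, while ATMG00020 and ATMG01390 have 1 WT NS column far above the others.

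**Figure D5:**
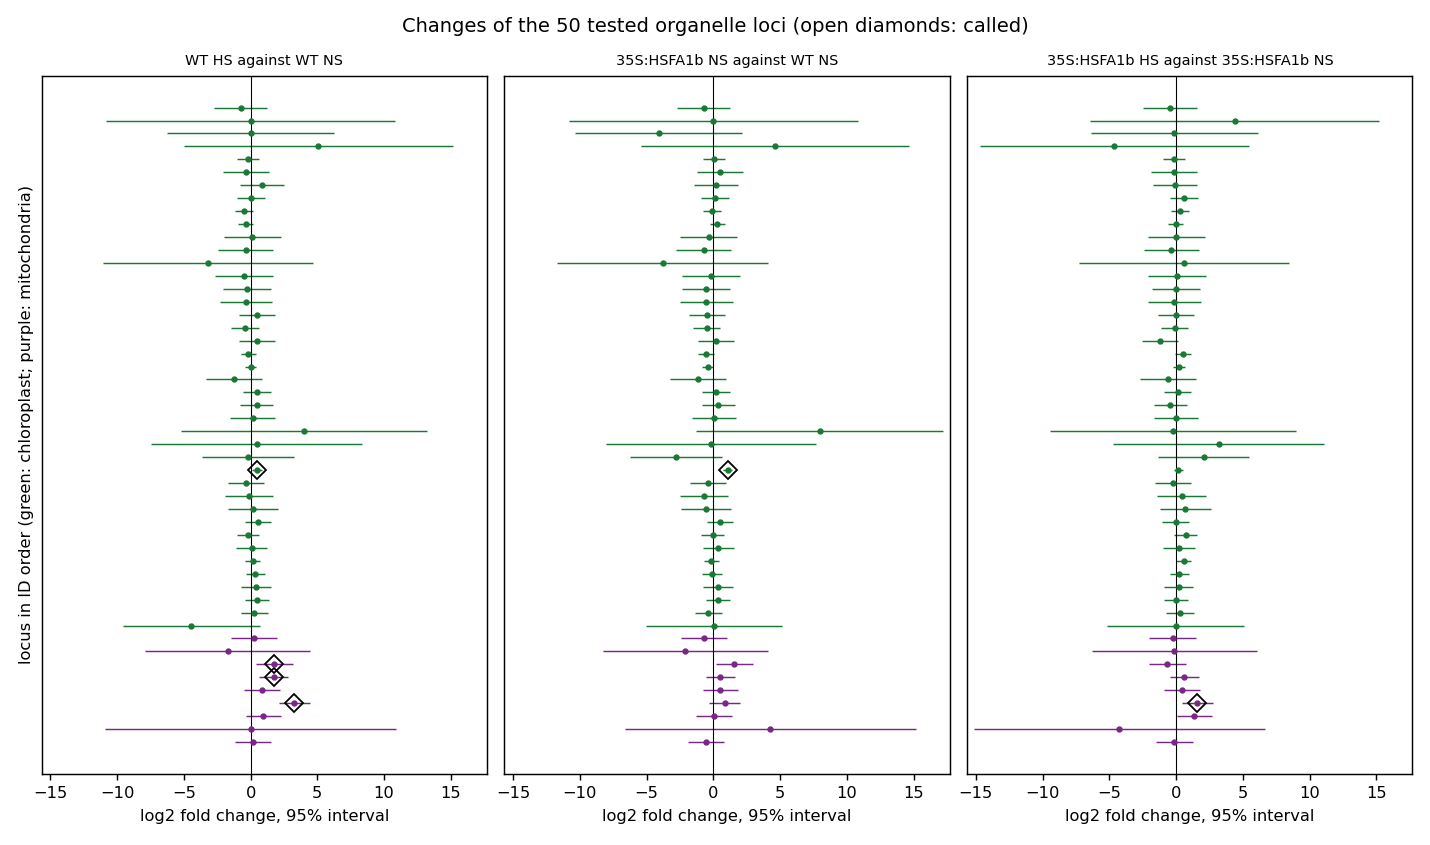
Log2 fold change with its 95% interval for the 50 tested organelle loci in 3 comparisons, in the order of their IDs from ATCG00020 at the top to ATMG01390 at the bottom. Open diamonds mark the calls, 4 in WT HS against WT NS, 1 in 35S:HSFA1b NS against WT NS and 1 in 35S:HSFA1b HS against 35S:HSFA1b NS.

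Summed over all loci of an organelle, the levels were a small share of each column. The chloroplast loci took 0.0343 ± 0.0079% of the summed FPKM in 35S:HSFA1b HS, 0.038 ± 0.0134% in 35S:HSFA1b NS, 0.0303 ± 0.0252% in WT HS and 0.0349 ± 0.0213% in WT NS plants (SD, n = 3 each). The mitochondrial loci took 0.00433 ± 0.00132% in 35S:HSFA1b HS, 0.00649 ± 0.00462% in 35S:HSFA1b NS, 0.00441 ± 0.00205% in WT HS and 0.00415 ± 0.00359% in WT NS plants. None of the 6 comparisons of these shares passed an exact two-sided permutation test, with p values between 0.5 and 0.8 (0.8 for each after adjustment over the 6), where 3 columns against 3 allow no p below 0.1. Levels of WT HS column 0 and WT NS column 2, at 0.0594% and 0.0593% for the chloroplast, were the highest of their groups, and the lowest column, WT HS column 2, was at 0.0157%. Single loci set much of some sums. In WT HS column 0, ATCG00080 held 388 of the 727 FPKM of the chloroplast. In 35S:HSFA1b NS column 2, ATMG01380, above 0 there only, held most of the 98.35 FPKM of mitochondria. The summed FPKM of all loci also ranged from 632839.9 to 1280257.7 by column, so the shares are no measure of organelle-wide levels.

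Nuclear genes that transcribe and process organelle RNA were taken as 4 lists, to be read against the 48.8% of all loci called under heat in WT plants and the median log2 fold change of 0.03 over nuclear loci. Of 12 proteins associated with the plastid polymerase, 9 rose and 1 fell, with a median log2 fold change of 0.49. The rises included FLN1 (AT3G54090), a fructokinase-like protein of the polymerase complex, at 1.17, and PTAC14 (AT4G20130) at 0.54, and the fall was that of PTAC2 (AT1G74850) at -0.88. Of 6 sigma factors, which guide the plastid polymerase to promoters, 3 fell, among them SIGA (AT1G64860) at -0.88, and none rose. Of 3 phage-type polymerases 1 rose, SCA3 (AT2G24120), an enzyme of plastids, and of 6 nucleases and RNA-binding proteins 1 rose and 1 fell.

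SCA3 had 57.7, 73.9 and 67.8 FPKM in 35S:HSFA1b HS plants, 28.3, 25.3 and 22.5 FPKM in 35S:HSFA1b NS plants, 30.5, 26.9 and 24.1 FPKM in WT HS plants and 16.8, 18.2 and 15.3 FPKM in WT NS plants. It rose with heat by 0.69 in WT and by 1.39 in 35S:HSFA1b plants on the log2 scale (limma adjusted p = 0.00115 and 1.48e-05), and with the transgene by 0.59 (adjusted p = 0.0108). The difference of its heat response was 0.70 ± 0.18 (SE, adjusted p = 0.0299). In 35S:HSFA1b plants heat raised 10 of the 12 polymerase-associated proteins and lowered 2 of the 6 sigma factors, where 42.3% of all loci were called. The transgene without heat called 0 of those 12 proteins and 1 sigma factor, SIGA, lower, where 14.8% of all loci were called.

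Of 10 nuclear loci that encode other subunits of the chloroplast Clp protease, a list added after the value of ATCG00670 was seen, 8 rose and none fell under heat in WT plants, against 48.8% of all loci called, with a median log2 fold change of 0.35. Under heat in 35S:HSFA1b plants 7 rose and none fell, against 42.3% of all loci called, with a median of 0.32. The transgene without heat called 0 of the 10, against 14.8% of all loci, with a median of -0.17, where ATCG00670 itself changed by 1.08. CLPP4 (AT5G45390), a subunit of the proteolytic core, averaged 168 FPKM in 35S:HSFA1b NS plants and 206 FPKM in WT NS plants, and its log2 fold change was -0.29 with an adjusted p of 0.0716. This was the lowest change of the list, and AT5G51070 of the same list went the other way, at 0.45 (adjusted p = 0.135 in limma).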

How the data were processed

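RNA from leaves was sequenced by the authors, and the deposited values are FPKM per locus. The submitters' processing notes name GSNAP, Cufflinks, Cuffdiff and the TAIR10 genome. Per the study's methods, reads were mapped to the transcriptome and libraries were scaled by the geometric method of Cuffdiff, described there for all groups but 35S:HSFA1b HS. Strand handling, rRNA removal and the treatment of reads with several matches are not given in the sources used here, and such reads could move between an organelle locus and its nuclear copy. The genotype label reads wild type for every sample, so groups follow the sample titles. Column digits 0 to 2 were not matched to libraries. No 2 columns held identical values, and 0 columns were left unassigned.

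The 12 columns were fitted together with limma 3.58.1 (R 4.3.3, trended eBayes) on log2(FPKM + 0.01), so fold changes are on that scale, understated for low loci and, where a column is at 0, set largely by the pseudocount. Tested were loci averaging 1 FPKM or more across the columns, with Benjamini-Hochberg adjustment over 17720 loci and a call at an adjusted p of at most 0.05. The procedure was tested on simulated data. P-values measure the spread between the samples deposited as replicates. Shares of summed FPKM were compared by exact two-sided permutation tests. Genome copies were found with BLAST+ 2.17.0 in RefSeq TAIR10.1, which also gave sequences and coordinates. Python 3.11.15, numpy 2.4.6, pandas 2.3.3 and matplotlib 3.10.9 did the rest.

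Named for each organelle were the 5 tested loci highest in WT NS plants, up to 5 called loci in each direction of each comparison, and a list of organelle genes, which could be matched to IDs only through annotation notes. Loci and lists were chosen with earlier results of these data known, and the Clp list after its values were seen. Alternatives were quantile normalization, rescaling on nuclear loci or on loci of the same organelle, no intensity trend, pseudocounts of 0.1 and 1, no filter, a minimum mean of 5 FPKM, a fit of only the groups compared, a fit of 9 columns without 35S:HSFA1b HS, a replicate block, each column left out, loci with near-identical copies left out and, chosen after seeing the data, the 2 columns that stand apart for each organelle left out.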

Additional observations from a re-analysis of the deposited data

How the results depend on the processing

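The counts of called loci rest on few loci near the threshold. No organelle locus called outside the alternatives had a mean of 5 FPKM. The minimum mean of 5 FPKM therefore removed all of them before the test, and its counts of 0 below say nothing about those calls. For chloroplast loci under heat in WT plants (1 called), rescaling on loci of the same organelle and no filter each gave 2, and a minimum mean of 5 FPKM or a fit of only the groups compared gave 0. For 35S:HSFA1b NS against WT NS (1 called), rescaling gave 3 and the minimum of 5 FPKM gave 0. For heat in 35S:HSFA1b plants (0 called), no filter gave 2, and a fit of only the groups compared, or leaving out both columns that stand apart, gave 1. For the difference of the heat response (0 called), rescaling gave 1. For mitochondrial loci under heat in WT plants (3 called), no filter gave 12 of the 51 loci above 0. The minimum of 5 FPKM gave 0, and quantile normalization and only the groups compared gave 2. Rescaling gave 2 (1 higher and 1 lower), and leaving out WT HS column 2 with WT NS column 1 gave 1. For 35S:HSFA1b NS against WT NS (0 called), no filter gave 1. For heat in 35S:HSFA1b plants (1 called), quantile normalization, only the groups compared and leaving out WT HS column 2 with WT NS column 1 gave 2, no filter gave 3, and rescaling, a pseudocount of 1 and the minimum of 5 FPKM gave 0. With 1 column left out, the chloroplast counts ranged from 0 to 1, 1 to 1, 0 to 1 and 0 to 0, and the mitochondrial counts from 1 to 5, 0 to 1, 0 to 2 and 0 to 2, each in the order WT heat, transgene, 35S:HSFA1b heat and difference. With 1 column left out, the differences in share of summed FPKM, in percentage points, ranged for the chloroplast from -0.01907 to 0.00768 (WT heat), -0.004324 to 0.0153 (transgene) and -0.009296 to 0.003764 (35S:HSFA1b heat), and for mitochondria from -0.001136 to 0.002282, -0.000316 to 0.004366 and -0.003725 to 0.0004893, so every one of the 6 changed sign. The cause of these changes was not tested. Column digits did not pair samples, with correlations of deviations from -0.385 to 0.181, 1 of 18 above 0.1 and the own digit best in 14 of 36. With the replicate block, the mitochondrial count under heat in 35S:HSFA1b plants was 0 (ATMG00690, adjusted p = 0.0507 in limma) and that under heat in WT plants was 2, without ATMG00110 (adjusted p = 0.0636 in limma). It changed no other count of organelle calls. Rescaling on the 41 chloroplast loci carries their wide spread to all loci. Among the alternatives that tested ATCG00670, its transgene call was lost only there (log2 fold change 1.06, adjusted p = 0.915 in limma). Quantile normalization moved the median change over the whole table to -0.12 (log2) under heat in WT plants, against 0.03 without it. Weighting by length and leaving out rRNA and tRNA loci were not run, since the reference used here ties no organelle ID to a length or class.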

Other observations

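Below the minimum mean of 1 FPKM, 42 mitochondrial loci were above 0 in some column, 8 of them in all 12. With no filter on low values, 12 mitochondrial loci were called under heat in WT plants and all 12 were higher in WT HS, where 8764 of the 24782 loci tested (35.4%) were called in limma. Beside ATMG00110, ATMG00640 and ATMG00690, the 12 were ATMG00040, ATMG00050, ATMG00070, ATMG00080, ATMG00090, ATMG00630, ATMG00680, ATMG01030 and ATMG01170, named after their values were seen. Some sit at the floor. In WT NS plants ATMG00050 was at 0 in every column and ATMG00040 at 0.193, 0 and 0 FPKM. Their fold changes are set largely by the pseudocount. ATMG01030 has a nuclear copy at 99.86% identity. In number, 33, 35 and 39 mitochondrial loci were above 0 in the WT HS columns, against 28, 24 and 30 in the WT NS columns, and 25, 39 and 29 in the 35S:HSFA1b HS columns, against 25, 26 and 36 in the 35S:HSFA1b NS columns. The WT groups did not overlap in this count and the 35S:HSFA1b groups did. For the chloroplast, 61, 54 and 56 loci were above 0 in the WT HS columns, against 58, 56 and 61 in the WT NS columns, which overlapped. The same count over all loci was not taken. WT HS column 2 had the highest value for 5 of the 9 tested mitochondrial loci, and its part in these values was not tested.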
